A study of Homo sapiens and Mus musculus with 69 samples.

Results

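The genes described here are those of the WNT ligands, the Frizzled receptors and the secreted DKK and SFRP proteins, together with the co-receptors *LRP5* and *LRP6* and the feedback gene *AXIN2*. They were taken by symbol, as every gene whose full symbol is WNT, FZD, DKK or SFRP followed by its number and, for WNT, an optional A or B, plus *LRP5*, *LRP6* and *AXIN2*. This gave 40 of the 20516 genes in the human expression table and 35 of the 18501 genes in the table of the mouse line, where *Wnt3a*, *Wnt8a*, *Wnt8b*, *Dkk1* and *Dkk4* were not analysed here. Of the 40 human genes, 19 are WNT ligands, 10 Frizzleds, 2 co-receptors, 4 DKK genes and 4 SFRP genes.

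The question behind the study was what part Notch signaling plays in the way small cell lung cancer (SCLC) meets the immune system, and bulk RNA-Seq was done in 4 human SCLC cell lines and the mouse SCLC line KP1, which lacks *Rb1* and *Trp53*. H82, H524 and H69 cells carried a doxycycline-inducible vector for the *NOTCH1* intracellular domain (N1ICD), the active form of the receptor, and were compared without and with doxycycline (1 µg/mL) and with parental cells. The same pair of conditions was sequenced in H82 N1ICD cells with knockout (KO) of *REST* or of *STING1*, and in H524 cells with a doxycycline-inducible *REST* vector. COR-L88 and KP1 cells received vehicle (DMSO), TAS1440, a reversible inhibitor of the histone demethylase LSD1 (100 nM), or TAS1440 plus a γ-secretase inhibitor (GSI) that blocks the release of active Notch (BMS-708163 at 2 µM in COR-L88, DBZ at 10 µM in KP1), and COR-L88 cells with *STING1* KO received DMSO or TAS1440. Each of the 20 human and 3 KP1 groups held 3 libraries, and the libraries are numbered here as in their titles. With doxycycline, only the cells that had attached to the plate were collected, after at least 28 days by the study's methods. Its figure legends give 56 days for H82 and H524 and more than that for H69. TAS1440 was given for 28 days in COR-L88 and for over 28 days in KP1. The titles of the libraries do not give the day. The labels say neither which KO clone was sequenced nor whether the 3 libraries of a group came from separate cultures, so *P* values measure the spread between libraries, which may be technical.

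WNT ligands are secreted lipid-modified proteins that bind Frizzled receptors on the cell surface. With *LRP5* or *LRP6* as co-receptor the complex stabilizes β-catenin, which enters the nucleus, binds TCF/LEF factors and induces target genes, of which *AXIN2* is a widely used readout because it feeds back to limit the pathway; ligands such as *WNT5A* and *WNT11* are better known for signaling that does not need β-catenin and acts on cell shape and movement. *DKK1*, *DKK2* and *DKK4* block *LRP5* and *LRP6*, SFRP proteins bind the ligands or the receptors outside the cell, and *DKK3* is a divergent family member whose part in the pathway is less clear. In the lung, WNT signals are known from the development of the airways and from the niche of alveolar stem cells.

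The sequences just before the start of 5 of these genes are shown because these genes were higher or lower in several of the lines below. Each is the 250 bases before a RefSeq start in GRCh38.p14, read 5′ to 3′ on the strand of the gene: *FZD1* at chr7:91264183-91264432 (plus strand), *FZD4* at chr11:86955396-86955645 (minus), *SFRP5* at chr10:97772000-97772249 (minus), *WNT5A* at chr3:55481399-55481648 (minus, the inner of 2 listed starts) and *WNT6* at chr2:218859555-218859804 (plus). Capitals mark the core letters TGGGAA or TTCCCA, the core bound by RBPJ, the DNA-binding partner of Notch.
FZD1: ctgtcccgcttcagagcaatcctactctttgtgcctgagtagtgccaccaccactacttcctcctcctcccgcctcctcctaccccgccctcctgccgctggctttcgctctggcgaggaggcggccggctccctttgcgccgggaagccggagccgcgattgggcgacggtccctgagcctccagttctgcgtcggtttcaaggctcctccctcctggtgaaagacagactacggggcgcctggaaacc
FZD4: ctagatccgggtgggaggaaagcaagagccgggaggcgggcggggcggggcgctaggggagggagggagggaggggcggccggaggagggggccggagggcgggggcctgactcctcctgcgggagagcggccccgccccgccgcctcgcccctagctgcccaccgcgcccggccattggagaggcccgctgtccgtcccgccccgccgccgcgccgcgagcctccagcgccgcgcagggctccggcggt
SFRP5: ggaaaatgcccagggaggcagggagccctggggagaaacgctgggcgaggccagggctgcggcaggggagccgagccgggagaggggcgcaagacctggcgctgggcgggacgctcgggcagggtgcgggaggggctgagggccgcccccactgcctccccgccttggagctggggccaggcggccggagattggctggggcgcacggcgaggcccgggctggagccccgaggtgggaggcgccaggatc
WNT5A: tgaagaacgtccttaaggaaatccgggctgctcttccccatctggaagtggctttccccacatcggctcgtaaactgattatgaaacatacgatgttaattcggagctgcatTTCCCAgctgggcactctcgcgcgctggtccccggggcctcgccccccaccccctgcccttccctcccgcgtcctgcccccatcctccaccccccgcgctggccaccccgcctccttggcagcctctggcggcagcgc
WNT6: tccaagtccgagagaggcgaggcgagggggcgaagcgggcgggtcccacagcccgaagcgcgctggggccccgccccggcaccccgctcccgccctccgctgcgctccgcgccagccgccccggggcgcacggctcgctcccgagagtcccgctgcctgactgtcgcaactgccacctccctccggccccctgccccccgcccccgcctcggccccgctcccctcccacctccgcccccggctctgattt
These promoters were rich in G and C, at 65.2% for *FZD1*, 80.8% for *FZD4*, 76.8% for *SFRP5*, 64.4% for *WNT5A* and 79.2% for *WNT6*. Promoters were listed for 26 of the 40 genes, 29 promoters in all, and both strands were searched for 2 motifs that do not overlap each other. The RBPJ core was found in 4 of the 29, those of *WNT5A*, *WNT5B*, *WNT9A* and *WNT9B*, and in 20.8% of all 35116 promoters in the table. In *WNT5A* its first base lies 138 bases before the start shown. The promoter of the other listed *WNT5A* start (chr3:55487307-55487556, minus strand) held neither motif. The TCF/LEF core CTTTGA or TCAAAG was found in 1 of the 29, that of *DKK1*, and in 11.2% of all promoters. A match describes these letters only and does not show that a factor binds there.

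Expression is given as log2(RPKM + 1), on which a fold change of a gene near 0 is understated, and no read counts were used here, so depth is known only relative to other libraries: it ranged from 0.700 to 1.52 times the median in the human libraries and from 0.871 to 1.07 times in KP1. *NOTCH1* mRNA, in which vector and endogenous transcripts are counted together, was higher in every library with doxycycline than in every library without it in all N1ICD lines, and in H524 cells with the *REST* vector *REST* went from 4.90-5.05 to 6.87-10.72. *REST* mRNA was still present in the *REST* KO cells (4.95-5.89 with doxycycline, against 6.13-6.48 in intact cells), as was *TMEM173*, the gene of STING, in both *STING1* KO lines, so mRNA does not check either KO. *INSM1*, a neuroendocrine marker, was called lower with N1ICD or TAS1440 in all 5 lines, and *VIM* was called higher. A list of 5 fibroblast markers moved with N1ICD: its summed log2 value went from 1.02-3.72 to 6.93-7.76 in H82, from 0.75-1.81 to 7.22-7.43 in H524 and from 0.89-1.24 to 11.06-11.18 in H69, with *COL1A1* and *PDGFRB* the largest and *PDGFRA* near 0. It went from 0.14-0.24 to 0.99-1.42 in COR-L88 and from 0.56-1.26 to 4.03-5.04 in KP1. A list of 4 leukocyte markers, *PTPRC*, *CD3E*, *CD14* and LYZ, went from 0.62-1.47 to 0.98-2.20 in H82, from 2.72-4.08 to 3.90-4.32 in H524, from 3.05-3.57 to 4.75-4.88 in H69 and from 1.80-2.31 to 0.93-1.72 in COR-L88, and its 2 genes present in KP1 went from 0 to 1.22-1.41. *CD14* made up most of these sums. *CD3E* was at 0 in every library of H524 and COR-L88 and near 0 in H82 and H69, and *PTPRC* was at or near 0 in H82, H524, COR-L88 and KP1 and reached 0.38 in H69 without doxycycline. The part of these movements in the results below was not tested. Bulk RNA cannot tell a change in the share of cells from a change in RNA per cell.

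At least 1 ligand and 1 Frizzled receptor were higher in every line under N1ICD or TAS1440, and secreted antagonists moved in every line. The ligands called higher were 4 of 8 tested in H82, 3 of 10 in H524, 3 of 11 in H69, 4 of 8 in COR-L88 and 1 of 1 in KP1. The Frizzleds were 2, 1, 2, 5 and 6 of 9. In the same order, 14.7%, 11.4%, 21.4%, 15.3% and 9.09% of all genes tested were higher. The Frizzled counts under N1ICD were near these shares. *AXIN2* was called in none of the 4 human lines with intact *REST* and *STING1*, which in H82 depended on the settings, and was not tested in KP1. A gene was tested where its log2 value reached 1 in at least 3 libraries of the line, and it was called where the adjusted P from limma was below 0.05 and the group means lay 1 log2 unit or more apart. The filter passed 24 of the 40 genes in H82, 24 in H524, 27 in H69, 22 in COR-L88 and 14 of 35 in KP1, and a gene that is high in only 1 group passes through that group. With N1ICD in H82, 8 of the 24 tested genes were higher, where 14.7% of all 13903 genes tested were, and 2 were lower, where 12.4% were. In H524, 5 were higher and 3 lower, against 11.4% and 7.19% of 13648 genes; with median-centred libraries this split was 5 and 5, and with quantile normalization it was 4 and 5. In H69, 7 were higher and 10 lower, against 21.4% and 20.4% of 13580 genes. With TAS1440, 11 of the 22 genes tested in COR-L88 were higher and 1 lower, against 15.3% and 7.46% of 13134 genes. In KP1, 8 of 14 were higher and 1 lower, against 9.09% and 9.7% of 8260 genes. There *Fzd2*, *Fzd4*, *Fzd5*, *Fzd6*, *Fzd7*, *Lrp6*, *Sfrp1* and *Wnt5a* were below 1 in every DMSO library and passed the filter through libraries with TAS1440. In H82 *DKK3* and *SFRP5*, in H524 *WNT10A* and in H69 *DKK2*, *SFRP2*, *WNT3* and *WNT3A* were below 1 in every library without doxycycline. In COR-L88 *DKK1*, *DKK3*, *FZD4*, *WNT2*, *WNT5B* and *WNT16* were below 1 in every DMSO library. *SFRP5*, *WNT4*, *WNT7B*, *WNT10A*, *WNT11* and *WNT16* were below 1 in every H69 library with doxycycline. The counts and medians therefore partly follow from the filter in all 5 lines. More of the WNT genes were higher than lower in every line but H69, and in H524 not with median-centred or quantile-normalized values. Their median log2 fold change was 0.35 in H82, 0.094 in H524, -0.11 in H69, 1.00 in COR-L88 and 1.62 in KP1, whereas the median of all genes tested lay between -0.018 and 0.083 in these comparisons. The 2 groups did not overlap for 14, 14, 23, 18 and 10 of the WNT genes in these lines, respectively, and for 52.6%, 47.6%, 83.4%, 62.2% and 52.1% of all genes tested.

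**Figure D1:**
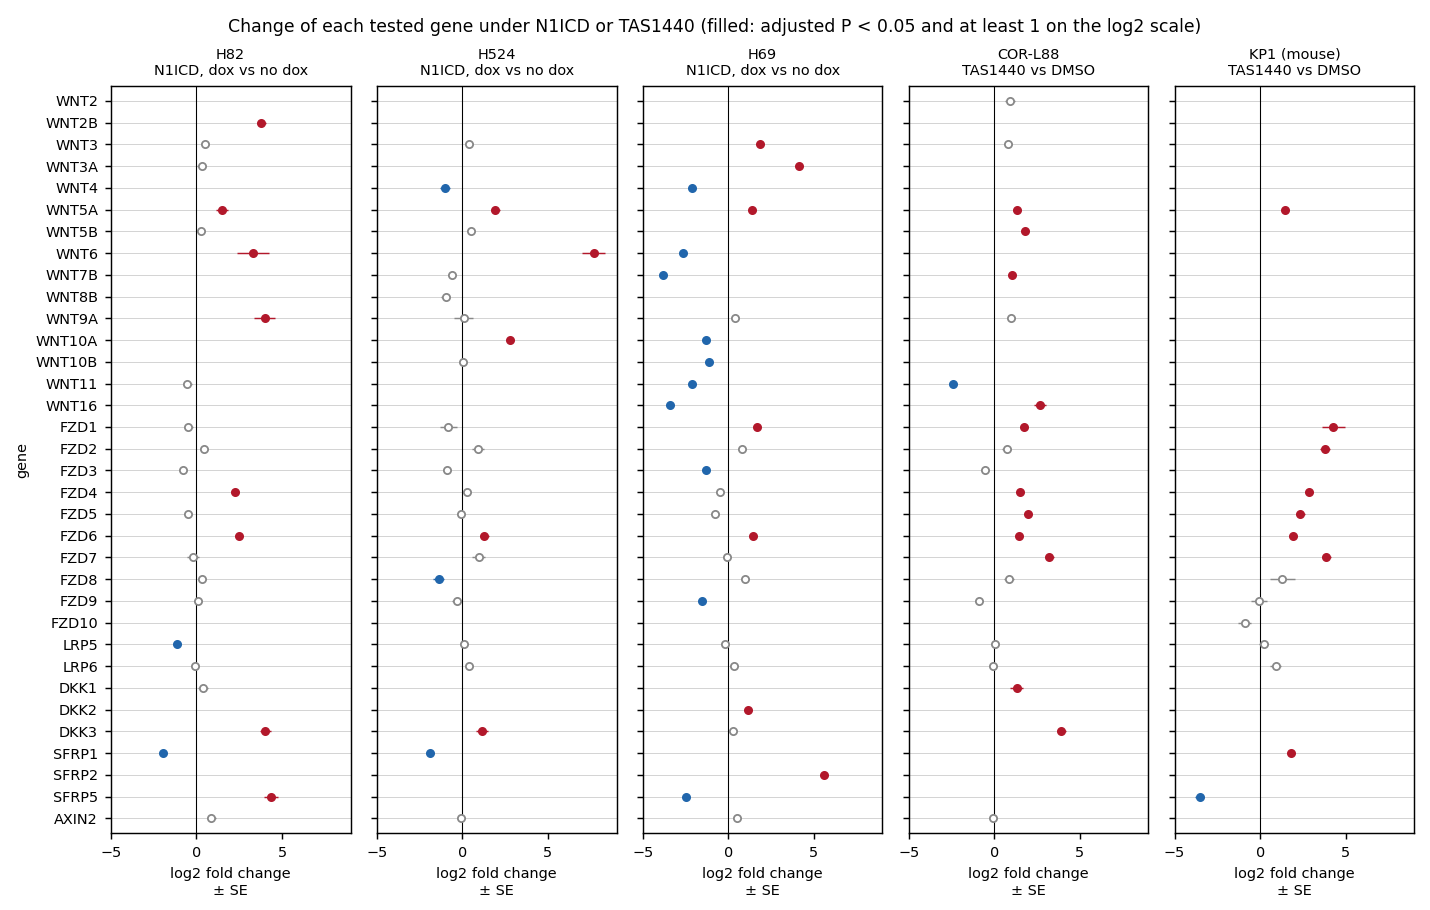
Log2 fold change with its standard error (horizontal axis) of each tested WNT, FZD, LRP, DKK and SFRP gene and AXIN2 (vertical axis) in the 5 lines under N1ICD or TAS1440, on the log2(RPKM + 1) scale; filled points, red for higher and blue for lower, were called, open points were not, and genes without a point were not tested. WNT5A (1.32 to 1.91) and FZD6 (1.27 to 2.48) are filled red in all 5 panels.

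Across these 5 comparisons, 1 in each line, 34 of the genes were tested in at least 1 line and 11 in all 5. *WNT5A* and *FZD6* were the only ones called higher in all 5 lines. *DKK3*, *FZD1* and *FZD4* were called higher in 3 lines, *FZD5*, *FZD7* and *WNT6* in 2, and 14 genes in 1. In all, 6 genes went both ways, higher in some line and lower in another: *WNT6*, *WNT7B*, *WNT10A*, *WNT16*, *SFRP1* and *SFRP5*. At least 1 line called 13 genes lower, and 5 genes were tested and never called, namely *AXIN2*, *LRP6*, *FZD10*, *WNT2* and *WNT8B*. The same counts were not made over all genes, of which 9.09% to 21.4% were higher and 7.19% to 20.4% lower in single lines. Of the 16 genes tested in all 4 human lines, 2 were called higher in all 4 and 0 lower in all 4 by limma (2 and 1 at an unadjusted *P* under 0.05), and of 11301 genes tested in all 4 lines 2.56% were higher in all and 0.602% lower in all.

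*WNT5A*, a ligand best known for β-catenin-independent signaling, was higher with N1ICD or TAS1440 than without in each line. In H82 it stood at 3.93, 3.68 and 4.24 on the log2 scale without doxycycline and at 5.16, 5.94 and 5.29 under doxycycline. In H524 they were 1.07, 1.88 and 0.91 without and 3.66, 3.05 and 2.88 with doxycycline, and in H69 they were 1.29, 2.02 and 1.87 without and 2.89, 3.10 and 3.31 with it. Every library with N1ICD was above every library without it in these 3 lines. The log2 fold changes were 1.51 ± 0.35 (standard error, limma adjusted *P* = 0.00153) in H82, 1.91 ± 0.26 (adjusted *P* = 6.87e-05) in H524 and 1.38 ± 0.19 (adjusted *P* = 0.000152) in H69. In COR-L88, *WNT5A* was 3.40, 2.92 and 2.91 with DMSO, 4.14, 4.36 and 4.71 with TAS1440 and 3.36, 2.88 and 2.77 with TAS1440 plus GSI. In KP1, *Wnt5a* was 0.14, 0.11 and 0.13 with DMSO, 1.97, 1.65 and 1.10 with TAS1440 and 0.27, 0.31 and 0.25 with TAS1440 plus GSI. In both lines the TAS1440 libraries lay above all others, and in COR-L88 the libraries with GSI fell within the range of DMSO or just below it. The fold change over DMSO was 1.32 ± 0.22 (adjusted *P* = 0.000179) in COR-L88 and 1.45 ± 0.19 (adjusted *P* = 0.000299) in KP1. Differences between the 3 N1ICD responses of *WNT5A* were not called, and the widest, H69 minus H524, was -0.53 ± 0.44 (adjusted *P* = 0.318).

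*FZD6*, a receptor also tied to planar cell polarity, lay between 1.46 and 3.13 in all untreated human libraries and was higher under treatment in every line. In H82 it was 2.18, 2.18 and 2.15 without and 4.37, 5.27 and 4.31 with doxycycline. In H524 it was 1.95, 2.01 and 2.00 without and 3.21, 3.19 and 3.36 with doxycycline, and in H69 it was 2.06, 2.06 and 2.16 without and 3.42, 3.60 and 3.63 with it. The groups did not overlap in any of these lines, with log2 fold changes of 2.48 ± 0.20 (limma adjusted *P* = 1.43e-08), 1.27 ± 0.26 (adjusted *P* = 0.00211) and 1.45 ± 0.08 (adjusted *P* = 3.56e-07). The response was largest in H82: H524 minus H82 was -1.21 ± 0.30 (adjusted *P* = 0.002) and H69 minus H82 was -1.03 ± 0.30 (adjusted *P* = 0.00363), but without library 8, the highest of the H82 libraries, these differences were -0.90 and -0.72 and were no longer called, and the second was also lost without library 51 (-0.99) or 52 (-0.96). In COR-L88, *FZD6* was 2.94, 3.11 and 3.13 with DMSO and 4.46, 4.42 and 4.65 with TAS1440 (1.45 ± 0.14, adjusted *P* = 1.31e-06), and in KP1, *Fzd6* was 0.89, 0.90 and 0.58 with DMSO and 2.27, 2.59 and 3.22 with TAS1440 (1.90 ± 0.23, adjusted *P* = 0.0002). The calls of *WNT5A* and *FZD6* over untreated cells held in all 5 lines under each of the 13 settings run, the reported one included (14 in KP1), with a lowest log2 fold change of 1.14 and a largest adjusted *P* of 0.0116.

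**Figure D2:**
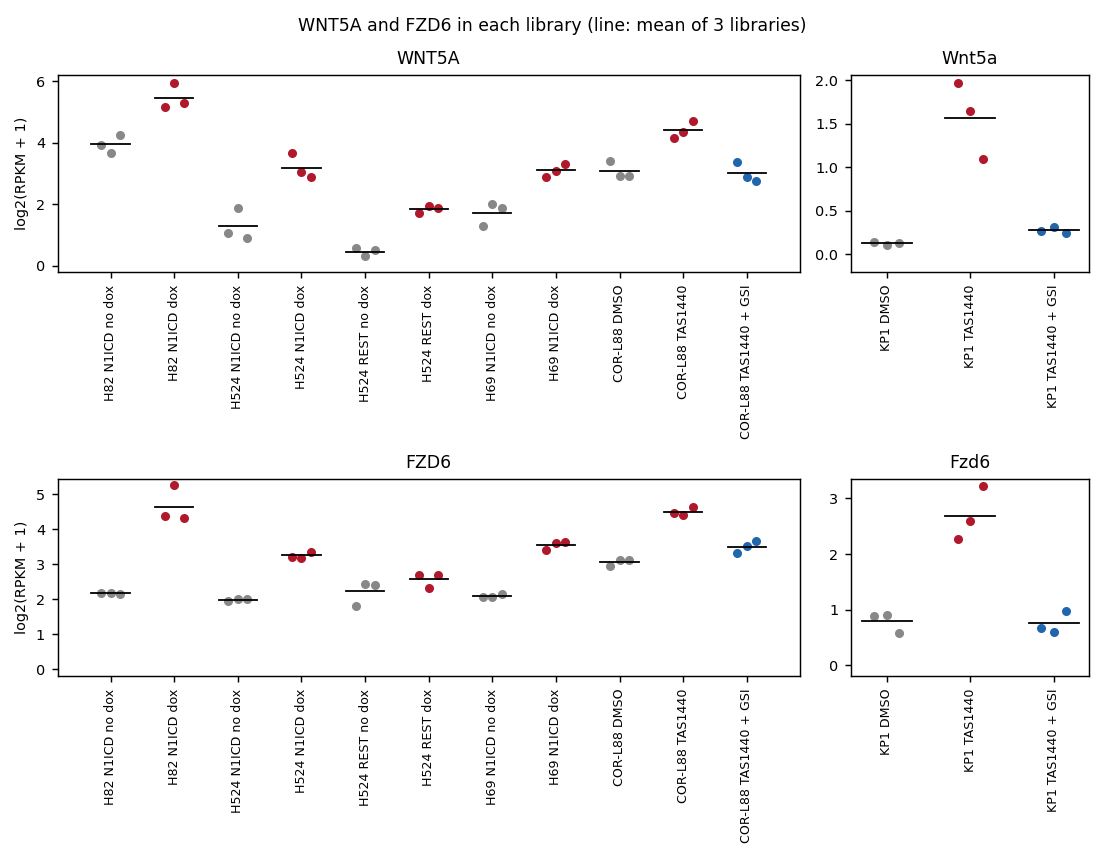
WNT5A and FZD6 (vertical axis, log2(RPKM + 1)) in each library of 11 human and 3 KP1 groups, with a line at the mean of 3 libraries; gray is untreated, red is doxycycline or TAS1440, blue is TAS1440 plus GSI. In H82 the FZD6 libraries with N1ICD sit between 4.31 and 5.27 above those without at 2.15 to 2.18, and in KP1 the Wnt5a libraries with GSI (0.25 to 0.31) sit near those with DMSO.

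Among the other WNT ligands, each line under N1ICD had its own set. In H82, *WNT9A* was 1.40, 0.87 and 0.00 without and 4.68, 4.16 and 5.39 with doxycycline, and *WNT2B* was 0.36, 1.27 and 1.11 without and 4.72, 4.38 and 4.96 with it. Both ligands are known to act through β-catenin, and neither group overlapped the other for either gene (3.99 ± 0.60, limma adjusted *P* = 2.52e-05, and 3.77 ± 0.26, adjusted *P* = 1.7e-09). *WNT6*, an epithelial ligand, was 0, 0 and 2.08 without and 1.85, 3.79 and 6.28 with doxycycline in H82, where the groups overlapped (3.28 ± 0.93, adjusted *P* = 0.00708; without library 9 it was 2.13 and not called, adjusted *P* = 0.0571). In H524 the same ligand showed the largest log2 fold change of all these genes on this scale, from 0, 3.39 and 2.61 to 9.43, 9.57 and 9.98 (7.66 ± 0.67, adjusted *P* = 9.36e-07). The smallest value of *WNT6* above 0 in any human library was 1.85, so its values without doxycycline lie near that floor. Fold changes of genes with lower floors are understated more, so this rank partly follows from the scale. *WNT10A*, a ligand known from teeth and skin, went from 0.61, 0.65 and 0.96 to 3.16, 3.71 and 3.72 in H524 (2.79 ± 0.17, adjusted *P* = 2.64e-08). *WNT6* and *WNT10A* are neighbours on chromosome 2 of GRCh37 (chr2:219724528-219738955 and chr2:219745574-219764303, both on the plus strand), and both were higher in H524 and lower in H69. In H82 they parted: *WNT10A*, not tested there, was 0.20, 0.18 and 0.06 without and 0.15, 0.13 and 0.28 with doxycycline. In H82 *REST* KO cells *WNT10A* was 0.15, 0.16 and 0.10 without and 0.36, 0.37 and 0.33 with it. There *WNT6* went from 4.64, 2.67 and 4.89 to 11.06, 11.38 and 10.12. *WNT4*, known from kidney and gonad development, went from 1.10, 1.69 and 0.61 to 0.16, 0.13 and 0.09 in H524 (a fall of 1.00 ± 0.28, adjusted *P* = 0.0131), a call that was lost without library 23 (-0.73) or library 27 (-0.98).

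H69 showed the most ligands that fell: of the 11 tested, 7 were lower and 3 higher, where 20.4% and 21.4% of all genes tested were. *WNT7B*, a ligand of the developing lung epithelium, went from 4.09, 3.91 and 3.77 without doxycycline to 0.11, 0.05 and 0.08 with it (-3.84 ± 0.08, limma adjusted *P* = 1.12e-09). *WNT16* went from 3.41, 3.30 and 3.52 to 0 in all 3 libraries (-3.41 ± 0.10, adjusted *P* = 5.57e-09), and *WNT4* from 2.51, 1.70 and 2.16 to 0 in all 3 (-2.13 ± 0.19, adjusted *P* = 8.51e-06). *WNT6* was higher in H69 without doxycycline than in any untreated group of another line, at 7.92, 8.38 and 8.38, and it was 6.00, 5.17 and 5.49 with doxycycline (-2.67 ± 0.22, adjusted *P* = 4.43e-06). *WNT11*, which like *WNT5A* signals mainly without β-catenin, went from 3.12, 2.40 and 2.76 to 0.79, 0.57 and 0.61 (-2.10 ± 0.17, adjusted *P* = 3.81e-06). *WNT10A* (-1.32) and *WNT10B* (-1.12) also fell in H69. In these 7 falling ligands no library with doxycycline reached a library without it. The ligands that rose in H69 besides *WNT5A* were *WNT3A* and *WNT3*, a pair of classical β-catenin ligands. *WNT3A* was 0.06, 0.11 and 0.10 without and 4.35, 4.18 and 4.06 with doxycycline (4.11 ± 0.08, adjusted *P* = 6.45e-10), and *WNT3* was 0.23, 0.22 and 0.06 without and 1.93, 2.01 and 2.14 with it (1.85 ± 0.08, adjusted *P* = 5.99e-08). In H69 the fibroblast marker *COL1A1* also reached 10.97 to 11.09 with doxycycline, *LUM* 5.35 to 5.45 and *DCN* 3.66 to 3.80, and their part in these results was not tested.

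With TAS1440 in COR-L88, 4 of the 8 tested ligands were higher and 1 was lower, where 15.3% and 7.46% of all genes tested were. Besides *WNT5A*, these were *WNT16*, which went from 0.23, 0.31 and 0.70 to 2.09, 3.11 and 4.04 (2.67 ± 0.37, limma adjusted *P* = 3.42e-05), and *WNT5B*, a close relative of *WNT5A*, which went from 0.84, 0.55 and 0.56 to 2.46, 2.45 and 2.39 (1.78 ± 0.21, adjusted *P* = 8.19e-06). *WNT7B* rose from 2.10, 2.41 and 2.33 to 3.43, 3.34 and 3.10, a log2 fold change of 1.01 ± 0.16 (adjusted *P* = 0.00012) that passed the size threshold narrowly and fell under it without library 10, 13 or 14 (0.92, 0.93 and 0.98). *WNT11* fell as in H69, from 3.26, 3.45 and 3.43 to 1.08, 0.93 and 0.95 (-2.39 ± 0.19, adjusted *P* = 3e-07). The TAS1440 and DMSO libraries did not overlap for any of these ligands. *WNT9A* was 8.63, 8.71 and 8.59 with DMSO and 9.67, 9.58 and 9.64 with TAS1440, a change of 0.99 ± 0.21 (adjusted *P* = 0.00123) just under the size threshold. *WNT6* was not tested in this line because only 2 of its libraries were above 1. It was 0, 5.10 and 3.18 with TAS1440 and listed at 0 in every other library of the line. In KP1, *Wnt5a* was the only ligand tested.

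Several Frizzled receptors rose together under TAS1440. With N1ICD, 2 of 9 tested Frizzleds were higher in H82, 1 in H524 and 2 in H69, where 14.7%, 11.4% and 21.4% of all genes tested were. With TAS1440, 5 of 9 were higher in COR-L88 and 6 of 9 in KP1, where 15.3% and 9.09% of all genes were. In KP1, *Fzd2*, *Fzd4*, *Fzd5*, *Fzd6* and *Fzd7* passed the filter through libraries with TAS1440, as *FZD4* did in COR-L88. The difference between N1ICD and TAS1440 was not tested, because the agents were given to different lines and perhaps for different times. In COR-L88, *FZD7*, a receptor known from stem cells, went from 1.73, 1.68 and 1.49 with DMSO to 4.11, 4.95 and 5.45 with TAS1440 (3.20 ± 0.26, limma adjusted *P* = 3.44e-07). *FZD5* went from 2.04, 2.05 and 1.89 to 3.79, 4.11 and 3.92 (1.95 ± 0.12, adjusted *P* = 2.76e-08), *FZD1* from 6.24, 5.63 and 5.63 to 7.60, 7.40 and 7.67 (1.72 ± 0.17, adjusted *P* = 1.34e-06), and *FZD4*, the receptor that also binds norrin in blood vessels, from 0.44, 0.45 and 0.33 to 1.67, 2.01 and 2.09 (1.52 ± 0.16, adjusted *P* = 2.66e-06). No Frizzled was called lower in COR-L88, where *FZD9* (-0.92) and *FZD3* (-0.57) had the lowest fold changes.

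In KP1 the same 5 Frizzleds rose with TAS1440, and *Fzd2* with them. *Fzd1* was 0.88, 1.11 and 0.58 with DMSO and 5.49, 4.14 and 5.74 with TAS1440 (4.27 ± 0.67, limma adjusted *P* = 0.000971). *Fzd7* was 0.13, 0.20 and 0.19 with DMSO and 4.56, 3.71 and 3.82 with TAS1440 (3.86 ± 0.25, adjusted *P* = 5.76e-06), and *Fzd2*, another receptor tied to *WNT5A* signaling, was 0.02, 0.00 and 0.05 with DMSO and 4.06, 3.08 and 4.28 with TAS1440 (3.78 ± 0.27, adjusted *P* = 8.86e-06). Each TAS1440 library lay more than 2 log2 units above each DMSO library for these 3 genes. *Fzd4* (0.67, 0.72 and 0.45 against 3.64, 2.95 and 3.82) rose by 2.86 ± 0.23 (adjusted *P* = 1.8e-05) and *Fzd5* (0.14, 0.08 and 0.22 against 2.81, 1.78 and 2.86) by 2.34 ± 0.25 (adjusted *P* = 9.26e-05). *Fzd8* (1.29) and *Fzd10* (-0.90) were not called. The KP1 table has a smaller scale than the human one, with a median RPKM total of 136744 per library against 1440080, so that its values are nearer to 0 and the filter and the pseudocount weigh more. Multiplied to the human total, a setting chosen after seeing the data, 25 of the 35 genes passed the filter, and 13 were higher and 3 lower with TAS1440 than with DMSO, where 12.4% and 14.8% of 12881 genes were.

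Under N1ICD, the other Frizzleds called were *FZD4* in H82, *FZD8* in H524 and *FZD1*, *FZD3* and *FZD9* in H69. *FZD4* in H82 went from 0.51, 0.57 and 0.81 to 2.67, 2.74 and 3.22 (2.25 ± 0.26, limma adjusted *P* = 1.3e-06), without overlap. *FZD1* in H69 went from 5.77, 5.68 and 5.32 to 7.21, 7.26 and 7.28 (1.66 ± 0.11, adjusted *P* = 8.92e-07), again without overlap, whereas in H82 it was 7.17, 7.73 and 7.66 without and 7.45, 6.58 and 7.12 with doxycycline and in H524 4.69, 7.05 and 5.41 without and 4.64, 5.12 and 4.89 with it. The receptors that fell were *FZD3* and *FZD9* in H69, the first known from axon guidance, and *FZD8* in H524. *FZD3* went from 2.89, 2.82 and 2.98 to 1.60, 1.59 and 1.57 (-1.31 ± 0.08, adjusted *P* = 5.08e-07), *FZD9* from 2.70, 2.82 and 2.21 to 1.12, 1.06 and 0.94 (-1.53 ± 0.20, adjusted *P* = 8.31e-05) and *FZD8* from 2.77, 2.02 and 2.22 to 0.84, 1.12 and 0.89 (-1.39 ± 0.32, adjusted *P* = 0.00397). *FZD3* was below its untreated level in all 4 human lines, called in 1 of them, with log2 fold changes from -1.31 to -0.57. *FZD10* passed the filter only in KP1.

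**Figure D3:**
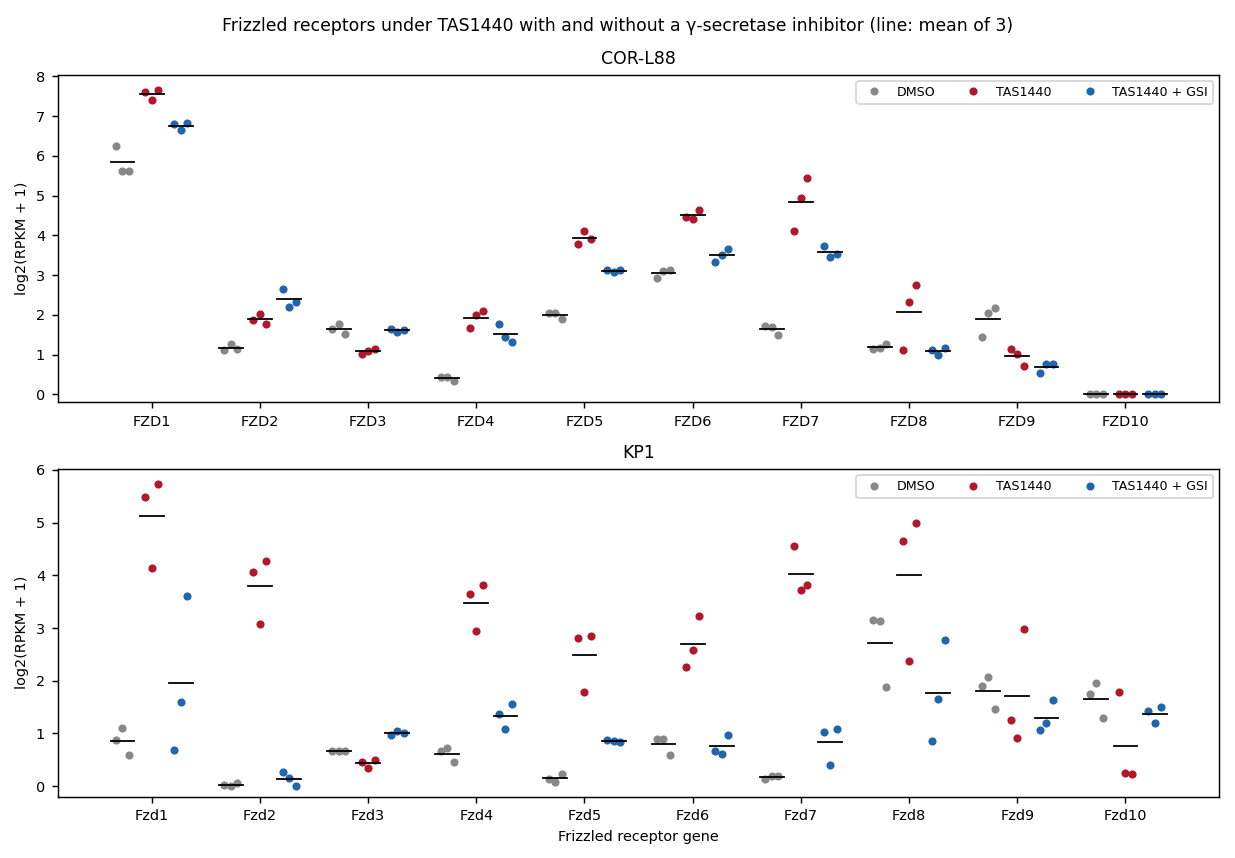
The 10 Frizzled genes (horizontal axis) in each library of COR-L88 (top) and KP1 (bottom) as log2(RPKM + 1), with gray for DMSO, red for TAS1440, blue for TAS1440 plus GSI and a line at the mean of 3 libraries; the 2 tables were scaled separately. FZD7 sits at 1.49 to 1.73 with DMSO and 4.11 to 5.45 with TAS1440 in COR-L88, and Fzd7 at 0.13 to 0.20 and 3.71 to 4.56 in KP1.

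*LRP6* did not pass both thresholds in any line with all libraries: its log2 fold change was -0.11 ± 0.17 in H82 (limma adjusted *P* = 0.603), 0.39 ± 0.13 in H524 (adjusted *P* = 0.0331), 0.35 ± 0.07 in H69 (adjusted *P* = 0.00118), -0.07 ± 0.14 in COR-L88 (adjusted *P* = 0.704) and 0.90 ± 0.32 in KP1 (adjusted *P* = 0.0557). In KP1 the groups did not overlap, with *Lrp6* at 2.61, 1.17 and 1.26 with TAS1440 and 0.84, 0.87 and 0.64 with DMSO, and it passed both thresholds without library 5 (1.15, adjusted *P* = 0.0254), without library 6 (1.11, adjusted *P* = 0.0352) and with a pseudocount of 0.1 (1.43, adjusted *P* = 0.0375). *Lrp6* passed the filter only through these TAS1440 libraries. *LRP5* was 8.24, 8.78 and 8.96 without and 7.83, 6.85 and 7.86 with N1ICD in H82, without overlap (-1.14 ± 0.25, adjusted *P* = 0.000971), but without library 8, the lowest, it fell by 0.81 and without library 6 by 0.99, both under the size threshold. In the other lines *LRP5* changed by 0.11 ± 0.15 in H524 (adjusted *P* = 0.616), -0.18 ± 0.08 in H69 (adjusted *P* = 0.0637), 0.05 ± 0.13 in COR-L88 (adjusted *P* = 0.775) and 0.21 ± 0.26 in KP1 (adjusted *P* = 0.57). *AXIN2*, the feedback target of β-catenin, was called in none of the 4 human lines under the reported settings. It was 0.96, 1.52 and 1.64 without and 2.47, 1.63 and 2.60 with N1ICD in H82, where the groups overlapped (0.86 ± 0.26, adjusted *P* = 0.01). There it passed both thresholds without library 8 (1.16, limma adjusted *P* = 0.00098) and with a pseudocount of 0.1 (1.18, adjusted *P* = 0.0142). In H69 it was 2.82, 2.66 and 2.57 without and 3.09, 3.19 and 3.31 with N1ICD, a change of 0.52 ± 0.09 (adjusted *P* = 0.000502) without overlap and under the size threshold. In H524 (-0.10 ± 0.22, adjusted *P* = 0.771) and in COR-L88 (-0.09 ± 0.16, adjusted *P* = 0.668) the groups overlapped. *Axin2* in KP1 was under the filter, at 0.94, 0.88 and 0.85 with DMSO, 0.16, 0.04 and 0.20 with TAS1440 and 1.01, 0.79 and 0.81 with TAS1440 plus GSI, with the TAS1440 libraries below all others.

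Of the secreted antagonists, *DKK3* rose in 3 of the 4 human lines. It was 0.07, 0.10 and 0.13 without and 4.45, 3.75 and 4.13 with N1ICD in H82 (4.01 ± 0.32, limma adjusted *P* = 1.12e-08), and 0.24, 0.09 and 0.19 with DMSO and 4.29, 4.40 and 3.58 with TAS1440 in COR-L88 (3.92 ± 0.26, adjusted *P* = 5.38e-08), without overlap in either line. In H524 it was 0.24, 2.19 and 0.89 without and 2.07, 2.35 and 2.28 with N1ICD, where the groups overlapped (1.13 ± 0.34, adjusted *P* = 0.0218), and the call was lost without library 22, 24, 26 or 27 (0.70 to 1.11). In H69 it was already at 2.79, 3.75 and 3.61 without and was 3.74, 3.63 and 3.64 with doxycycline, a change of 0.29. *DKK1*, the classical *LRP5* and *LRP6* inhibitor, was called in COR-L88, from 0 in all 3 DMSO libraries to 0.87, 2.22 and 0.80 with TAS1440 (1.30 ± 0.38, adjusted *P* = 0.00943), and fell under the size threshold without library 14 (0.84). *DKK2* was called in H69 (1.15 ± 0.07, adjusted *P* = 7.45e-07).

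SFRP genes went in opposite directions in different lines. *SFRP5* was 0.44, 0.22 and 0.33 without and 4.24, 4.47 and 5.37 with N1ICD in H82 (4.36 ± 0.40, limma adjusted *P* = 6e-08). In H69 the same gene was 2.23, 2.67 and 2.56 without and 0 in all 3 libraries with N1ICD (-2.49 ± 0.11, adjusted *P* = 8.02e-08), and in KP1 *Sfrp5* went from 3.74, 3.88 and 3.86 to 0.00, 0.02 and 0.83 with TAS1440 (-3.54 ± 0.24, adjusted *P* = 7.85e-06). *SFRP1* fell in both *NEUROD1*-type lines, from 3.69, 4.27 and 4.60 to 2.55, 1.90 and 2.18 in H82 (-1.98 ± 0.22, adjusted *P* = 9.13e-07) and from 3.49, 4.00 and 4.11 to 2.15, 1.62 and 2.13 in H524 (-1.90 ± 0.22, adjusted *P* = 1.72e-05), and *Sfrp1* rose in KP1 from 0.28, 0.32 and 0.19 to 2.01, 1.78 and 2.35 (1.78 ± 0.14, adjusted *P* = 1.57e-05). *SFRP2*, a matrix-associated member, was listed at 0 in each untreated H69 library and reached 5.77, 5.72 and 5.33 under N1ICD (5.61 ± 0.11, adjusted *P* = 6.32e-10). None of these groups overlapped. *Sfrp2* in KP1 was 7.31, 0.66 and 9.22 with TAS1440 and 0.05, 0.04 and 0.02 with DMSO, and because only 2 libraries passed 1 it was not tested.

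The responses to N1ICD were compared between lines in 1 fit of H82, H524 and H69, in which 32 of the genes were tested. As H524 minus H82, 3 were higher and 8 lower, against 9.97% and 9.42% of 15439 genes. As H69 minus H82, 6 were higher and 13 lower, against 22.3% and 21.6%, and as H69 minus H524, 7 were higher and 9 lower, against 18.1% and 19.3%, a split that was 7 and 6 with quantile normalization. The 3 comparisons share their lines, so they are not independent of each other. *WNT6* spanned the widest range, with a difference of -10.33 ± 1.14 as H69 minus H524 (limma adjusted *P* = 2.36e-09). *SFRP5* differed by -6.85 ± 0.43 as H69 minus H82 (adjusted *P* = 1.77e-15) and *SFRP2* by 5.61 ± 0.29 (adjusted *P* = 1.22e-17). The medians of the 32 genes were -0.11, -0.42 and -0.35 in the order given, and those of all genes 0.026, 0.044 and 0.039.

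The response to N1ICD was also measured in H82 cells with *REST* KO, and its difference from the response of intact cells was not tested. With doxycycline against without it in *REST* KO cells, 9 of 24 genes were higher and 3 lower, where 16.2% and 13.7% of all genes were, with a median of 0.49 (all genes -0.0091) and no overlap for 19 of the 24 (68.1% of all genes). *WNT6* was higher here than in any other group of the study, at 11.06, 11.38 and 10.12 with doxycycline against 4.64, 2.67 and 4.89 without (6.79 ± 0.93, limma adjusted *P* = 8e-06). *WNT3A* was listed at 0 in each untreated *REST* KO library and reached 3.12, 3.57 and 1.86 under doxycycline (2.85 ± 0.26, adjusted *P* = 5.12e-08). *DKK3* reached 5.86, 5.85 and 4.24, from 0.08, 0.02 and 0.00 (5.28 ± 0.32, adjusted *P* = 1.86e-10), *WNT9A* 5.37, 5.91 and 4.08, from 1.95, 1.84 and 1.46 (3.37 ± 0.60, adjusted *P* = 0.000132), and *WNT5A* 5.70, 4.64 and 4.11, from 1.18, 1.55 and 1.75 (3.33 ± 0.35, adjusted *P* = 2.86e-07). These 5 genes did not overlap between the groups. *FZD6* went from 2.16, 2.05 and 1.93 to 2.71, 2.99 and 2.94 (0.83 ± 0.20, adjusted *P* = 0.0022), which is under the size threshold. *FZD1* (-1.37 ± 0.28, adjusted *P* = 0.000557) and *FZD3* (-1.28 ± 0.17, adjusted *P* = 4.33e-06) fell. The smaller calls were *DKK1* (1.51), *WNT5B* (1.31), *SFRP5* (1.12) and *FZD9* (1.11), which were higher, and *SFRP1* (-1.10), which was lower. *SFRP5* lost its call without any of libraries 28 to 32 (adjusted P from 0.0531 to 0.095) and *SFRP1* without library 30 (-0.91).

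Compared directly under doxycycline, *REST* KO cells were higher than intact cells for 5 genes and lower for 6, against 9.44% and 8.21% of all genes, with a median of 0.050 (all genes -0.059). This comparison shares its libraries with those above. *WNT6* was higher by 6.88 ± 0.93 (limma adjusted *P* = 1.69e-05) and *WNT3A* by 2.55 ± 0.26 (adjusted *P* = 7.04e-07), while *SFRP5*, at 1.20, 1.49 and 0.70 in *REST* KO against 4.24, 4.47 and 5.37 in intact cells, was lower (-3.56 ± 0.40, adjusted *P* = 1.89e-06). *WNT2B* was lower in the KO (2.18, 2.06 and 1.97 against 4.72, 4.38 and 4.96; -2.62 ± 0.26, adjusted *P* = 4.48e-07), as were *FZD6* (-1.77 ± 0.20, adjusted *P* = 2.37e-06), *FZD4* (-1.47 ± 0.26, adjusted *P* = 0.000267), *SFRP1* (-1.39) and *FZD3* (-1.25). The other 3 called genes, *DKK3*, *LRP5* and *WNT5B*, were higher by 1.03 to 1.21, and each fell under the size threshold when library 32, 1 of the 3 *REST* KO libraries, was left out (0.94, 0.95 and 0.92), *DKK3* and *LRP5* also without library 31 and *LRP5* and *WNT5B* also without library 8. *NOTCH1* mRNA itself was higher in the *REST* KO cells with doxycycline (8.75-10.74) than in intact cells (4.26-5.56), and the part of this difference was not tested.

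In H82 cells with *STING1* KO, doxycycline raised 9 genes and lowered 1, against 12.2% and 8.07% of all genes, with a median of 0.80 (all genes 0.014) and no overlap for 18 of the 24 (56.9% of all genes). *SFRP5* rose most, from 0.66, 0.12 and 0.11 to 5.46, 7.77 and 6.86 (6.40 ± 0.40, limma adjusted *P* = 7.06e-10). *WNT9A* rose from 3.20, 3.21 and 0.70 to 6.30, 6.17 and 5.95 (3.77 ± 0.60, adjusted *P* = 6.98e-05), *DKK3* from 0.20, 0.02 and 0.04 to 1.82, 1.57 and 2.52 (1.88 ± 0.32, adjusted *P* = 0.000141) and *FZD4* from 1.28, 1.22 and 0.75 to 2.14, 3.40 and 2.78 (1.69 ± 0.26, adjusted *P* = 5.19e-05). *AXIN2* was called here, the only such call of *AXIN2* with against without doxycycline or TAS1440 under the reported settings, from 0.98, 1.11 and 0.62 to 1.90, 2.82 and 2.31 (1.44 ± 0.26, adjusted *P* = 0.000238), without overlap. *FZD6* rose by 1.27 ± 0.20 (adjusted *P* = 7.28e-05). *WNT5A* was not called: it was 5.40, 4.93 and 4.77 without and 4.22, 4.97 and 4.24 with doxycycline (-0.56 ± 0.35, adjusted *P* = 0.224). Among the other calls, *WNT2B*, *FZD2* and *DKK1* were higher by 1.09 to 1.19 and fell under the size threshold without library 59 (0.94 for *WNT2B* and 0.96 for *FZD2*), library 57 (0.80 for *WNT2B*) or library 58 (0.94 for *DKK1*), and *FZD3* was lower (-1.29 ± 0.17, adjusted *P* = 6.68e-06). Compared with intact cells under doxycycline, 3 genes were higher and 5 lower with *STING1* KO, against 7.72% and 8.75% of all genes, with a median of 0.16 (all genes -0.096): *SFRP5* (2.00 ± 0.40), *FZD2* (1.61 ± 0.25) and *LRP5* (1.58 ± 0.25) were higher and *DKK3* (-2.14 ± 0.32), *SFRP1* (-1.72 ± 0.22), *FZD6* (-1.41 ± 0.20), *WNT2B* (-1.36 ± 0.26) and *FZD3* (-1.10 ± 0.17) lower, with adjusted *P* values from 1.99e-05 to 0.00079.

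**Figure D4:**
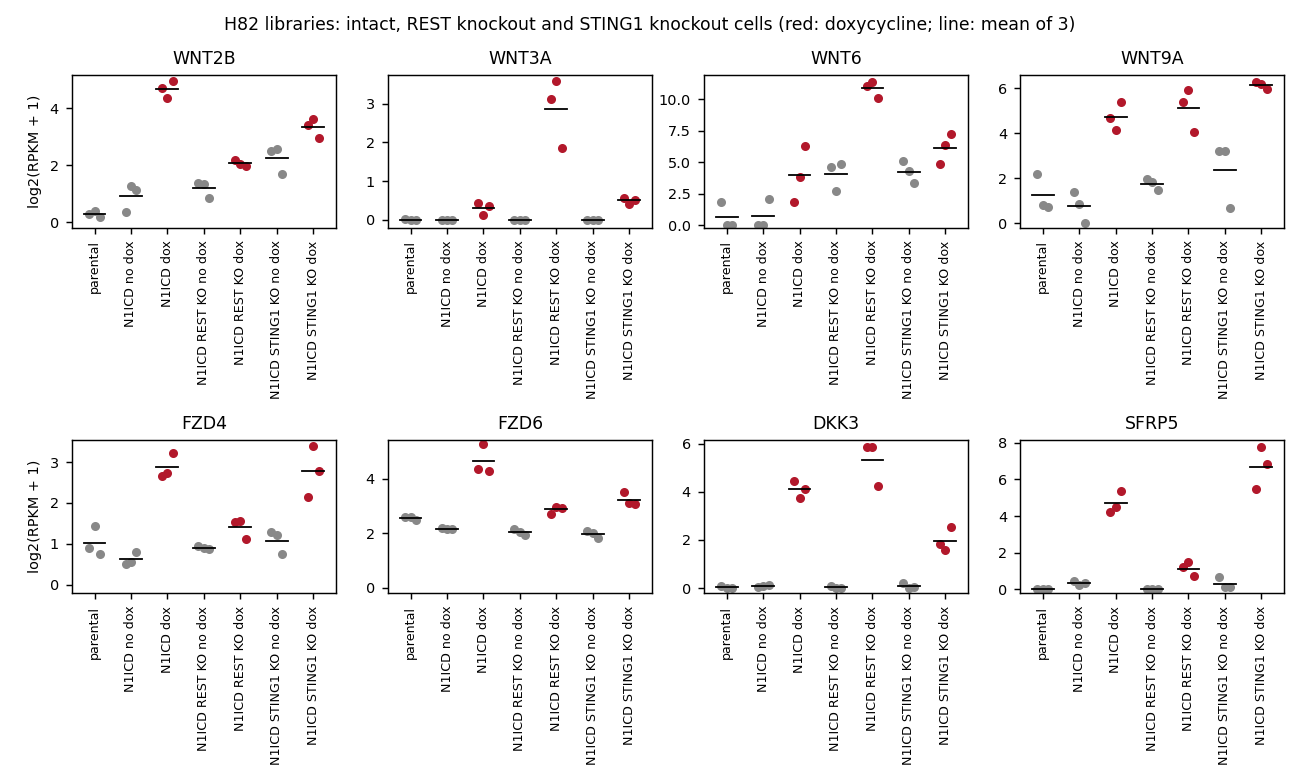
The 8 named WNT pathway genes (vertical axis, log2(RPKM + 1), with its own scale in each panel) in the libraries of the 7 H82 groups, red with doxycycline and gray without, with a line at the mean of 3 libraries. WNT6 reaches 10.12 to 11.38 and WNT3A 1.86 to 3.57 in REST KO cells with doxycycline, and SFRP5 reaches 5.46 to 7.77 in STING1 KO cells with doxycycline.

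In H524 cells the *REST* vector moved few of these genes. With doxycycline 1 of 24 was higher and 0 lower, against 1.28% and 0.586% of all genes. The 1 gene was *WNT5A*, which went from 0.56, 0.31 and 0.50 to 1.73, 1.95 and 1.88 without overlap (1.40 ± 0.26, limma adjusted *P* = 0.0122), although its adjusted *P* rose to between 0.0515 and 0.0675 without library 35, 36, 38 or 39, which leaves 0 calls. At an unadjusted *P* under 0.05, 1 gene was higher and 5 were lower. The median of the 24 was -0.034 (all genes 0.011). The response to N1ICD minus that to *REST* was called higher for 2 genes and lower for 1, against 9.88% and 5.68% of all genes, and the split was 2 and 2 with quantile-normalized or median-centred values; without library 23 it was 3 and 2. The median was 0.12 (all genes -0.016). *WNT6* (7.95 ± 0.95, adjusted *P* = 4.33e-05) and *WNT10A* (2.86 ± 0.24, adjusted *P* = 1.68e-06) were higher. *SFRP1* was lower (-1.14 ± 0.32, adjusted *P* = 0.0223), a call lost without library 24, 26, 34 or 37. For *WNT5A* the difference was 0.51 ± 0.37 (adjusted *P* = 0.373).

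The vector lines without doxycycline differed from parental cells in some of these genes. *NOTCH1* mRNA was already higher in N1ICD cells without doxycycline than in parental cells of H82 (0.88-1.45 against 0.01-0.04) and H524 (0.79-1.52 against 0.23-0.73). In H69 it was lower (0.38-0.39 against 0.58-0.62). The part of these differences in the comparisons with doxycycline was not tested. In H82, 2 were higher and 0 lower, against 3.75% and 2.66% of all genes (7 and 0 at an unadjusted *P* under 0.05): *SFRP1* was 0.19, 0.56 and 0.32 in parental cells and 3.69, 4.27 and 4.60 in N1ICD cells (3.83 ± 0.22, limma adjusted *P* = 8.94e-10), and *FZD1* was higher by 1.30 ± 0.28 (adjusted *P* = 0.00483). *SFRP1* with doxycycline (1.90 to 2.55) therefore lay below the vector line without doxycycline and above parental cells. In H524, 1 gene was higher and 2 lower in N1ICD cells without doxycycline, against 4.94% and 7.16% of all genes: *WNT9A* was higher (1.78 ± 0.55, adjusted *P* = 0.0309, lost without library 20, 22 or 23), and *SFRP1* (-1.47 ± 0.22, adjusted *P* = 0.000564) and *WNT6* (-2.86 ± 0.67, adjusted *P* = 0.00759) were lower. *WNT6* in H524 was 5.53, 4.88 and 4.17 in parental cells, between the N1ICD cells without and with doxycycline. In H524 cells with the *REST* vector and no doxycycline, 0 genes were called higher and 0 lower by limma, against 0.022% and 0.242% of all genes (2 and 1 at an unadjusted *P* under 0.05). In H69, 3 were higher and 1 lower, against 3.02% and 2.25%: *WNT6* (2.38 ± 0.22, adjusted *P* = 0.000129), *DKK3* (1.66 ± 0.22, adjusted *P* = 0.000997) and *WNT16* (1.62 ± 0.10, adjusted *P* = 1.09e-05) were higher and *FZD8* was lower (-2.80 ± 0.18, adjusted *P* = 1.62e-05). *WNT6* in H69 with doxycycline (5.17 to 6.00) overlapped parental cells (5.63, 6.04 and 5.87). The medians of the WNT genes in these 4 comparisons were 0.25, -0.053, 0.044 and 0.011, and those of all genes 0.018, -0.033, 0.018 and -0.0082.

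The GSI separated part of the TAS1440 response in COR-L88. TAS1440 alone was above TAS1440 plus GSI for 6 of 22 genes and below it for 1, against 10.4% and 4.32% of all genes, with a median of 0.34 (all genes 0.041) and the same TAS1440 libraries as in the comparison with DMSO. *DKK3* was 4.29, 4.40 and 3.58 with TAS1440 and 1.35, 1.29 and 0.99 with GSI added (2.88 ± 0.26, limma adjusted *P* = 3.48e-06), above DMSO (0.09 to 0.24) in each library. *WNT16* was 2.09, 3.11 and 4.04 with TAS1440 and 1.06, 0.60 and 0.95 with GSI (2.21 ± 0.37, adjusted *P* = 0.000289), and *WNT5A* differed by 1.40 ± 0.22 (adjusted *P* = 0.000194). *FZD7* (1.26 ± 0.26, adjusted *P* = 0.00162), *DKK1* (1.30 ± 0.38, adjusted *P* = 0.0123) and *FZD6* (1.01 ± 0.14, adjusted *P* = 6.9e-05) were also higher without the GSI, and the groups did not overlap for any of them. *FZD7* and *FZD6* fell just under the size threshold without library 15 (0.95 and 0.94), as did *FZD6* without library 16 (0.92). *FZD6* was also 0.87 with quantile normalization and with median-centred libraries. *DKK1* was 0.84 without library 14 (adjusted *P* = 0.0566). *FZD7* with GSI stood at 3.73, 3.47 and 3.54, between DMSO and TAS1440 alone, and so did *FZD1* at 6.81, 6.64 and 6.84 and *FZD5* at 3.13, 3.07 and 3.12. *FZD4* with GSI was 1.78, 1.44 and 1.32, of which the highest overlapped TAS1440 alone. *WNT11* was higher with GSI, at 2.29, 2.23 and 2.21 (-1.26 ± 0.19 as TAS1440 minus TAS1440 plus GSI, adjusted *P* = 0.000164). *NOTCH1* mRNA was 6.71 to 6.75 with GSI and 1.99 to 2.79 with TAS1440 alone.

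In COR-L88 cells with *STING1* KO, TAS1440 raised 12 of 22 genes and lowered 2, against 10.2% and 5.79% of all genes, with a median of 1.10 (all genes -0.016) and no overlap for 18 of the 22 (49.6% of all genes). *FZD7* went from 0.93, 1.48 and 0.96 to 4.74, 4.90 and 4.44 (3.57 ± 0.26, limma adjusted *P* = 1.95e-07), *WNT5B* from 0.30, 0.41 and 0.19 to 3.57, 2.62 and 3.63 (2.97 ± 0.21, adjusted *P* = 1.28e-07) and *WNT5A* from 2.65, 2.90 and 2.15 to 4.42, 4.74 and 4.49 (1.98 ± 0.22, adjusted *P* = 8.81e-06). *WNT11* went from 4.66, 3.96 and 5.00 to 0.85, 0.71 and 1.00 (-3.69 ± 0.19, adjusted *P* = 7.96e-09). *DKK3* rose by 2.27 ± 0.26 (adjusted *P* = 1.09e-05), *FZD1* by 1.93 ± 0.17 (adjusted *P* = 7.81e-07) and *FZD5* by 1.77 ± 0.12 (adjusted *P* = 8.7e-08), and *FZD9* was lower (-1.29 ± 0.18, adjusted *P* = 7.13e-05). These groups did not overlap. *DKK1* (1.96), *WNT2* (1.76), *FZD4* (1.31) and *FZD6* (1.23) were also higher. Of the smaller calls, *WNT16* (1.12, adjusted *P* = 0.0243) was lost without library 40, 42, 43 or 44 and *WNT3* (1.08) without library 42 or 44. With TAS1440, *STING1* KO cells were higher than intact cells for 0 genes and lower for 3, against 1.48% and 5.06% of all genes: *WNT16* (-1.71 ± 0.37, adjusted *P* = 0.00453), *DKK3* (-1.57 ± 0.26, adjusted *P* = 0.000891) and *WNT7B* (-1.21 ± 0.16, adjusted *P* = 0.00022). The count was 6 without library 14 and 5 without library 44. At an unadjusted *P* under 0.05, 4 genes were higher and 6 lower, and the median was -0.082 (all genes -0.075).

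In KP1 the GSI took most of the called genes back toward DMSO. TAS1440 alone was above TAS1440 plus GSI for 9 of 14 genes and below it for 1, against 8.5% and 8% of all genes, with a median of 1.78 (all genes 0.0048) and no overlap for 10 of the 14 (41.1% of all genes). *Fzd2*, *Fzd5*, *Fzd6*, *Lrp6*, *Sfrp1* and *Wnt5a* were below 1 in every library with GSI or DMSO, so these numbers also partly follow from the filter. *Fzd2* with GSI was 0.27, 0.15 and 0.00 (3.67 ± 0.27, limma adjusted *P* = 1.34e-05), *Fzd7* 1.03, 0.40 and 1.08 (3.19 ± 0.25, adjusted *P* = 1.77e-05) and *Fzd1* 0.67, 1.60 and 3.60 (3.17 ± 0.67, adjusted *P* = 0.00609). Each of these libraries was below every library with TAS1440 alone, the nearest being the third *Fzd1* library. *Fzd4*, at 1.36, 1.08 and 1.57 with GSI, and *Fzd5*, at 0.88, 0.85 and 0.84, stayed above the DMSO libraries and below TAS1440 alone (2.13 ± 0.23, adjusted *P* = 0.000116, and 1.63 ± 0.25, adjusted *P* = 0.000957). *Sfrp1* was 0.01 in all 3 libraries with GSI (2.04 ± 0.14, adjusted *P* = 1.09e-05), below DMSO, and *Sfrp5* was 3.72, 3.39 and 3.14 (-3.13 ± 0.24, adjusted *P* = 1.76e-05), below DMSO by less than 1. *Fzd8* overlapped between the groups (2.25 ± 0.72, adjusted *P* = 0.0397), and its call was lost without library 4, 6, 7 or 8. The third TAS1440 library of KP1, number 6, was the only one with *Dkk3* above 1 (4.20).

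**Figure D5:**
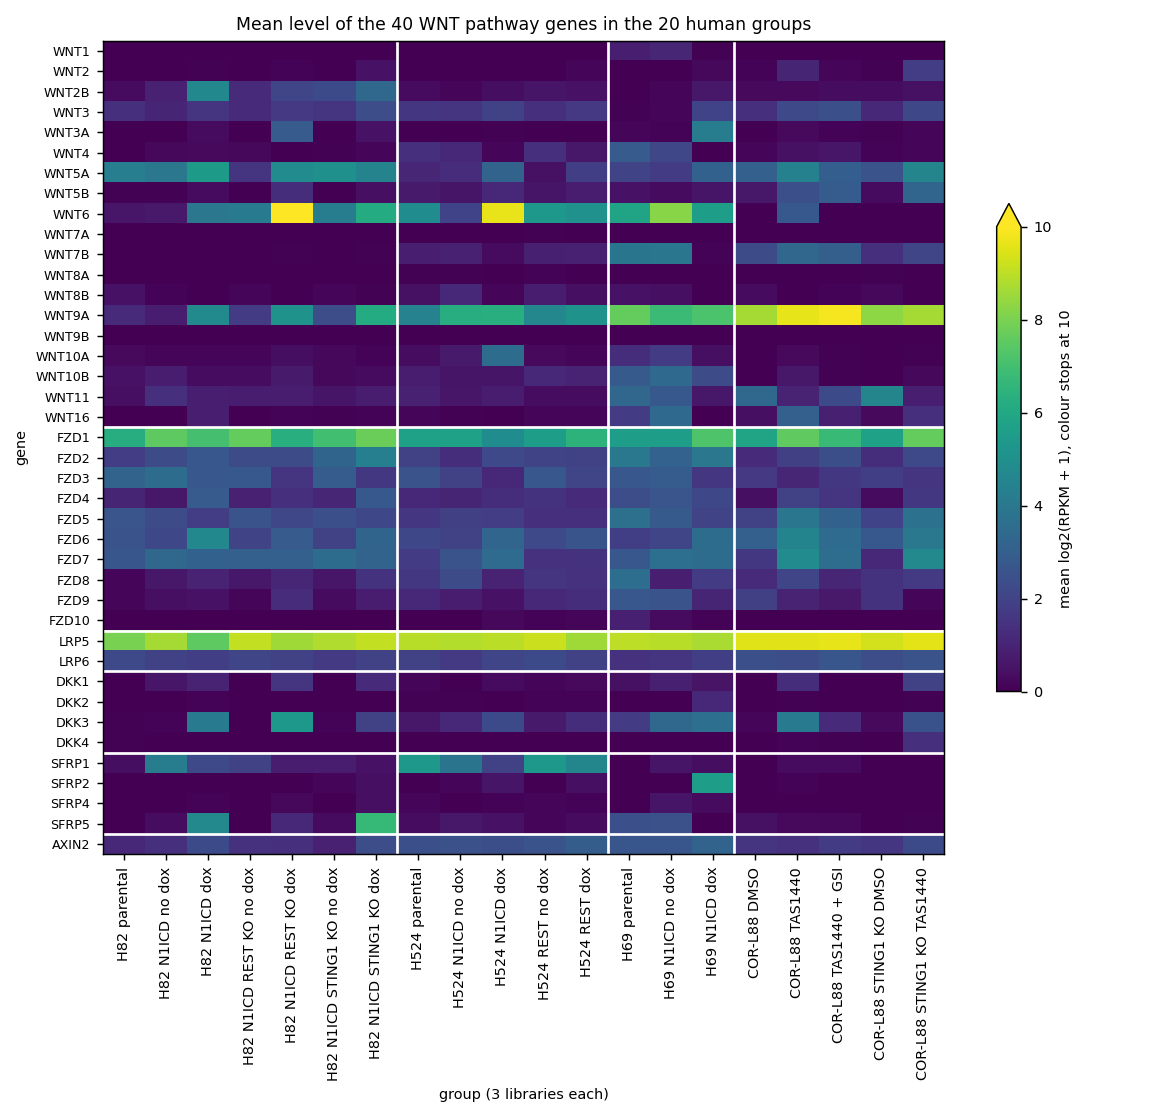
Mean log2(RPKM + 1) (colour, stopping at 10) of each of the 40 genes (vertical axis) in the 20 human groups of 3 libraries (horizontal axis), with white lines between roles and between cell lines. WNT6 is highest in H82 REST KO cells with doxycycline (mean 10.86) and next in H524 cells with N1ICD (9.66), and LRP5 lies between 7.51 and 9.62 in every group.

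Other genes of the pathway were read from a list of 48, chosen with earlier results of these data known. In H82, 10 of the 43 tested were higher with N1ICD and 6 lower, in H524 7 of 42 were higher and 7 lower, and in H69 9 of 39 were higher and 11 lower. The shares of all genes tested were 14.7% and 12.4% in H82, 11.4% and 7.19% in H524 and 21.4% and 20.4% in H69. In COR-L88, 10 of 34 were higher with TAS1440 and 0 lower, and in KP1 2 of 20 were higher and 0 lower (lower counts of 2 and 5 at an unadjusted *P* under 0.05 in COR-L88 and KP1), against 15.3% and 7.46% of all genes in COR-L88 and 9.09% and 9.7% in KP1. *WLS*, the carrier that every lipid-modified WNT needs to leave the cell, and *BCL9L*, a partner of β-catenin in the nucleus, were the 2 called higher in all 5 lines. The share of all genes called higher in all 5 lines was not counted. *WLS* rose by 2.56 ± 0.21 in H82, 1.25 ± 0.24 in H524, 2.86 ± 0.30 in H69, 2.64 ± 0.18 in COR-L88 and 2.49 ± 0.24 in KP1, and *BCL9L* by 1.66 ± 0.24, 2.71 ± 0.16, 2.31 ± 0.12, 2.23 ± 0.20 and 1.98 ± 0.25. *NOTUM*, a secreted enzyme that strips the lipid from WNT ligands, was lower in H82 (-1.33 ± 0.28), H524 (-1.92 ± 0.31) and H69 (-4.92 ± 0.09) and higher in COR-L88 (1.09 ± 0.29). *LEF1*, a nuclear partner of β-catenin, was higher in H524 (1.83 ± 0.28) and COR-L88 (2.03 ± 0.28) and lower in H69 (-1.91 ± 0.08), and 6 of the 47 listed genes tested in at least 1 line went both ways in this manner. The R-spondin receptor gene *LGR4* was higher in COR-L88 (2.87 ± 0.20), and the antagonist *FRZB* was higher there (3.69 ± 0.34) and in H82 (1.51 ± 0.50) and lower in H524 (-1.64 ± 0.55, groups overlapping) and H69 (-2.50 ± 0.21). Other rises were those of *SOSTDC1*, a secreted antagonist, in H82 (2.79 ± 0.22), *PTK7*, a WNT co-receptor, in H524 (3.52 ± 0.31) and *TCF7L1*, a TCF factor, in H524 (2.39 ± 0.29) and H69 (2.69 ± 0.11). Among the other falls were those of *TLE2*, a co-repressor of TCF factors, in H69 (-3.67 ± 0.09) and of *DACT1*, a cytoplasmic regulator, in H82 (-1.97 ± 0.33) and H69 (-3.48 ± 0.13). All these changes passed limma's adjusted *P* of 0.05.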

How the data were processed

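Bulk RNA-Seq of 60 human and 9 KP1 libraries was analysed from gene tables. The authors deposited log2(RPKM + 1) values that had been made from read numbers per gene after TMM scaling. Per the labels the human reads were aligned to hg19 and the mouse reads to mm10, and the submitters' processing notes name cutadapt, STAR, RSEM and edgeR. Versions, annotation and gene lengths are not given in the sources used here. RPKM depends on the gene length used, so levels were not compared between genes, except to name the largest members of the marker lists. The filter, the mean asked for below and the ranking of fold changes put all genes on 1 scale, so they weigh genes unevenly. The KP1 table, whose RPKM total is lower, was tested separately. No column belonged to other samples (0), and 0 pairs of libraries held identical values.

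Each human line and KP1 was fitted in limma 3.58.1 (R 4.3.3) with 1 mean per group and a mean-variance trend, and a fit of H82, H524 and H69 gave the differences between lines. The voom method of the study needs counts and was not used. Genes reaching a log2 value of 1 in at least 3 libraries were tested, Benjamini-Hochberg adjustment ran over every gene tested, and a call needed an adjusted P below 0.05 with group means 1 log2 unit or more apart. Fold changes are on the log2(RPKM + 1) scale. The fits were tested on simulated data. Up to 6 called genes per direction with groups that did not overlap and a mean of at least 2 in the higher group were described by library, with *AXIN2*, *LRP5* and *LRP6* in every line, up to 4 differences between responses per direction, and up to 3 genes per direction and line from the list of other pathway genes. Other genes are named where a count of 5 or fewer or a call lost without a library asked for it, and were chosen after their values were seen. The genes and lists were chosen with earlier results of these data known. Alternatives were no filter, quantile normalization, 0.1 as pseudocount, centring each library on its median, a fit of the compared groups only, no trend, and each library left out. Rescaling KP1 was added after seeing the data. Tables and plots were made with Python 3.11.15, numpy 2.4.6, pandas 2.3.3 and matplotlib 3.10.9. Promoters are from RefSeq on GRCh38.p14 and gene positions on GRCh37. Some items are not reported here.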

Additional observations from a re-analysis of the deposited data

Results flagged for a closer look

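The responses compared here are log2 fold changes, and each difference is a limma contrast with its adjusted P. For each pair of responses, up to 4 differences in each direction are given, all of them past both thresholds.

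In H524, the response to N1ICD minus the response to *REST* was 7.95 for *WNT6* (adjusted *P* = 4.33e-05), 2.86 for *WNT10A* (adjusted *P* = 1.68e-06) and -1.14 for *SFRP1* (adjusted *P* = 0.0223).

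Between the N1ICD responses of H82 and H524, H524 minus H82 was 4.38 for *WNT6* (adjusted *P* = 0.00323), 2.75 for *WNT10A* (adjusted *P* = 6.5e-13) and 1.25 for *LRP5* (adjusted *P* = 0.00053). It was -4.52 for *SFRP5* (adjusted *P* = 2.98e-10), -3.91 for *WNT9A* (adjusted *P* = 0.000237), -3.61 for *WNT2B* (adjusted *P* = 3.96e-12) and -2.88 for *DKK3* (adjusted *P* = 9.15e-06). The difference of *LRP5* was 0.92 without library 8 of H82, under the size threshold. The difference of *WNT6* had an adjusted *P* of 0.16 with a pseudocount of 0.1 and of 0.0788 with only the compared groups.

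As H69 minus H82, the difference was 5.61 for *SFRP2* (adjusted *P* = 1.22e-17), 3.81 for *WNT3A* (adjusted *P* = 3.84e-14), 2.13 for *FZD1* (adjusted *P* = 0.000766) and 1.78 for *SFRP1* (adjusted *P* = 0.00024). It was -6.85 for *SFRP5* (adjusted *P* = 1.77e-15), -5.95 for *WNT6* (adjusted *P* = 3.48e-05), -4.25 for *WNT16* (adjusted *P* = 1.75e-22) and -3.86 for *WNT7B* (adjusted *P* = 1.33e-17).

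As H69 minus H524, the difference was 5.16 for *SFRP2* (adjusted *P* = 1.54e-16), 4.07 for *WNT3A* (adjusted *P* = 8.13e-15), 2.49 for *FZD1* (adjusted *P* = 0.000157) and 2.35 for *FZD8* (adjusted *P* = 5.73e-07). It was -10.33 for *WNT6* (adjusted *P* = 2.36e-09), -4.11 for *WNT10A* (adjusted *P* = 2.1e-18), -3.37 for *WNT16* (adjusted *P* = 1.38e-19) and -3.25 for *WNT7B* (adjusted *P* = 1.93e-15). In H69 *WNT16*, *WNT7B* and *SFRP5* were at or near 0 with N1ICD.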

How the results depend on the processing

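Of 219 results for single genes, 178 kept the same call under every alternative run, 41 changed call under at least 1, and 0 changed direction. Counts of called genes stayed within 1.5 times the reported count in all but a few cases. With a pseudocount of 0.1 the count was 6 in place of 2 for H82 N1ICD without doxycycline against parental cells, and 5 in place of 3 for COR-L88 *STING1* KO against intact cells with TAS1440. Fitting only the compared groups gave 1 in place of 3 for H524 N1ICD without doxycycline against parental cells, where *WNT6* had an adjusted *P* of 0.114. Leaving out each library in turn gave 0 to 1 for H524 *REST* (reported 1), 2 to 5 for the H524 N1ICD minus *REST* response (reported 3, and 5 without library 23), and 3 to 6 for COR-L88 *STING1* KO against intact cells with TAS1440 (reported 3, and 6 without library 14). The cause of these changes was not tested. With KP1 rescaled to the human total, 16 genes were called against DMSO and 16 against TAS1440 plus GSI, in place of 9 and 10, because more genes passed the filter and the pseudocount weighed less. *Axin2* then passed the filter and was lower with TAS1440 (-2.37 against DMSO, adjusted *P* = 0.000215).

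Other calls depended on the fit: *WNT6* in H82 with N1ICD had an adjusted *P* of 0.0523 with only the compared groups, and *WNT16* in COR-L88 *STING1* KO against intact cells 0.0578. *WNT7B* under TAS1440 in COR-L88 was 0.84 with quantile normalization and 0.87 with median-centred libraries. Quantile normalization or median centring moved the median of all genes by over 0.1 in 7 comparisons, from -0.149 in COR-L88 under TAS1440 to 0.133 in COR-L88 *STING1* KO against intact cells, and no gene named here changed direction. Depth limits genes near 0, where values are few reads and 3 libraries a group leave small changes undetected. No paired analysis was possible because the numbers in the titles run through the libraries and no compared groups share them.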

Other observations

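*WNT6* was listed at 0 in 18 of the 60 human libraries, and its smallest value above 0 was 1.85.

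In KP1 rescaled to the human total, a setting chosen after seeing the data, *Sfrp2* was 8.34 above DMSO with TAS1440 (limma adjusted *P* = 0.0118), *Sfrp4* 3.21 (adjusted *P* = 0.00196) and *Lrp6* 1.44 (adjusted *P* = 0.0389), and *Wnt3* was lower (-1.68, adjusted *P* = 0.00206).

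*WNT9A* (chr1:228106357-228135633, minus strand) and *WNT3A* (chr1:228194699-228248972, plus strand) are neighbours in GRCh37. In H82 *REST* KO cells with doxycycline both were higher, and in H82 with N1ICD and intact *REST* *WNT9A* was 4.16 to 5.39 while *WNT3A* was 0.43, 0.12 and 0.36. In H69 *WNT3A* rose and *WNT9A* was 6.32, 7.20 and 6.91 without and 7.31, 7.08 and 7.17 with N1ICD, with overlapping groups.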
